A study of Mus musculus with 6 samples.

Results

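The genes described here encode the enzymes that break down the branched-chain amino acids valine, leucine and isoleucine and that process propanoate. They were 48 of the 14882 genes in the deposited table of the growth plate hypertrophic zone, and were taken from its pathway column. A gene was a member if that column named valine, leucine and isoleucine degradation or propanoate metabolism, and 9 further genes that it also placed in glycolysis, such as Dld and Ldha, were left out. Of the 48 members, 28 carried only the amino acid pathway, 7 only the propanoate pathway and 13 both. No level was used as a threshold, but this pair of pathways was picked with the levels already known, so the differences between genotypes are given as a description of these libraries and support no conclusion about the genotype.

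Tissue came from mice aged 7 days on the C57BL/6 strain, either homozygous for loss of Adamts17 (Adamts17-/-, 3 libraries) or wild type (WT, 3 libraries), which the submitters describe as littermates. The hypertrophic zone, the layer of enlarged chondrocytes where cartilage mineralises before it is replaced by bone, was cut by laser from frozen sections of the proximal tibia, and its RNA was linearly amplified before sequencing. Adamts17 encodes a secreted protease of the ADAMTS family. Neither the deleted part of the gene nor the number of animals behind each library is given in the sources used here, so the spread between libraries may be partly technical.

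Breakdown of the 3 amino acids begins with a reversible transamination and an irreversible oxidation by a mitochondrial ketoacid dehydrogenase complex. Separate branches follow, using acyl-CoA dehydrogenases, hydratases and thiolases that partly serve fatty acid oxidation as well. Leucine ends in acetoacetate and acetyl-CoA, whereas valine and isoleucine give propionyl-CoA, which biotin-dependent and cobalamin-dependent enzymes turn into succinyl-CoA for the citrate cycle. Of the 48 members, 42 carried a mitochondrial term in the table's cellular component column (87.5%, against 9.76% of all genes in the table).

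Upstream sequence is shown for 4 members whose libraries did not overlap between the genotypes, each as the 250 bases before the RefSeq start site (build GRCm38.p6). The Hadhb window, chr5:30155003-30155252 on the plus strand, lies within the 272 bases that separate the start of Hadhb from that of Hadha, which is transcribed in the opposite direction. The other windows are chr3:131272102-131272351 on the minus strand for Hadh, chr7:64392372-64392621 on the plus strand for Mcee and chr13:119690101-119690350 on the plus strand for Hmgcs1. Capitals mark matches, on either strand, to the GC box (GGGCGG), the CCAAT box (CCAAT) and the sterol regulatory element (TCACNCCAC), and no marked match overlaps another. For Mcee the RefSeq start lies upstream of the start given in the deposited table.
Hadhb: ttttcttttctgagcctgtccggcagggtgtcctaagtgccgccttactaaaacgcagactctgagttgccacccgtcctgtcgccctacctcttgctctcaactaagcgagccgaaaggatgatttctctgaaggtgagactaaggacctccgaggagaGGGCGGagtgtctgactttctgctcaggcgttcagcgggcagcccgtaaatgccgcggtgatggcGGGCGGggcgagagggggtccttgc
Hadh: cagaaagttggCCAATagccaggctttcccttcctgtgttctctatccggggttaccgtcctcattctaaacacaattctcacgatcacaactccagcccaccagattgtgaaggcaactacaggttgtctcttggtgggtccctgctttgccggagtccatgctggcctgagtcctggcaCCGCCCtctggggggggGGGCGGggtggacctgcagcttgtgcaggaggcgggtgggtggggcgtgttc
Mcee: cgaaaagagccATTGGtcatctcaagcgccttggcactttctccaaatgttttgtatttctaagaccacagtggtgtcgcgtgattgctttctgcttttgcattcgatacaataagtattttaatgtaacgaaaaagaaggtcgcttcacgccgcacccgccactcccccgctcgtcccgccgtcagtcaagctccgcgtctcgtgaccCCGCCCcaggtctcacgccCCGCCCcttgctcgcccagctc
Hmgcs1: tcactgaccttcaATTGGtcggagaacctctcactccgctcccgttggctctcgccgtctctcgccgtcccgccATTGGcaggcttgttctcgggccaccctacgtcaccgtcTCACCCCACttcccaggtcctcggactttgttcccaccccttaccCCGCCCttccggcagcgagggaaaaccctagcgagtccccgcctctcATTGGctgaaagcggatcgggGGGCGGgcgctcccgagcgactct
All 4 windows hold 2 GC boxes each, the Hadh and Mcee windows also hold 1 CCAAT box each, and the Hmgcs1 window holds 3 CCAAT boxes and 1 sterol regulatory element. Acaa1b and Acaa2, whose libraries did not overlap either, are not shown. Acaa1b had a match to the CCAAT box but none to the GC box, so GC boxes were not common to all members without overlap.

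Of the 48 members, 41 had an entry in the RefSeq promoter table, with 46 windows in all. A GC box was present in 23 of those 46 windows (50%), against 32.7% of all 32851 windows, and a CCAAT box in 25 (54.3%, against 33.8%). The sterol regulatory element was found in 2 of the 46 windows (4.35%, against 1.05% of all windows), those of Hmgcs1 and Ehhadh. Matches to the ERR response element (TCAAGGTCA), the NRF1 site, the PPAR DR1 element and the cAMP response element (TGACGTCA) numbered 0 in the 46 windows, and each was rare over all windows (0.387%, 0.782%, 0.0335% and 1.55%). Members' windows held a median of 11 CpG dinucleotides, against 6 over all windows. These are matches of letters in a short window, and not measurements of binding.

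Levels are RPKM, read numbers scaled to transcript length and library size, and they rest on few reads. Read equivalents, the deposited value times transcript length divided by the step on which the values fall, summed to between 595989 and 2688295 per library, and 1 of them on a transcript of 2000 bases was worth between 0.175 RPKM (WT replicate 1) and 0.784 RPKM (Adamts17-/- replicate 3). Adamts17 itself was at 0.0085, 0.0870 and 0.0260 RPKM in Adamts17-/- replicates 1 to 3 and at 0.246, 0.0407 and 0.397 RPKM in WT replicates 1 to 3, too near the floor to check the labels. The hypertrophic collagen Col10a1 was at 1437, 1507 and 4151 RPKM in Adamts17-/- and 2218, 13347 and 5866 RPKM in WT, so the defining marker of the labelled tissue was present in all 6 libraries. A fit over the 9128 genes with at least 1 RPKM in at least 3 libraries (limma on log2(RPKM + 1)) called 0 genes higher (0%) and 0 lower (0%) at an adjusted p under 0.05, and 229 genes had an unadjusted p under 0.05. Below, 3 values in a row are always replicates 1, 2 and 3 of the group named, and a log2 fold change is Adamts17-/- over WT from that fit with its standard error. The fit moderates each gene's variance with that of all tested genes. The standard error of a gene (SE) therefore does not reflect the spread of its own libraries alone.

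Over the 48 members, the level was lower in Adamts17-/- libraries on average, with wide overlap. Their mean log2(RPKM + 1) was 1.82, 2.41 and 1.43 in Adamts17-/- and 3.02, 2.23 and 2.66 in WT, so that Adamts17-/- replicate 2 lay above WT replicate 2. The members summed to 332, 894 and 310 RPKM in Adamts17-/- and 751, 645 and 952 RPKM in WT. Members listed at 0 numbered 8, 7 and 15 in Adamts17-/- and 0, 6 and 9 in WT. As a share of the members that is 16.7%, 14.6% and 31.2% in Adamts17-/- and 0%, 12.5% and 18.8% in WT, where over all genes of the table the shares were 15.3%, 14.2% and 21.2% in Adamts17-/- and 2.63%, 16.6% and 20.9% in WT. In bulk tissue, fewer cells of a type and less RNA per cell cannot be told apart.

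**Figure D1:**
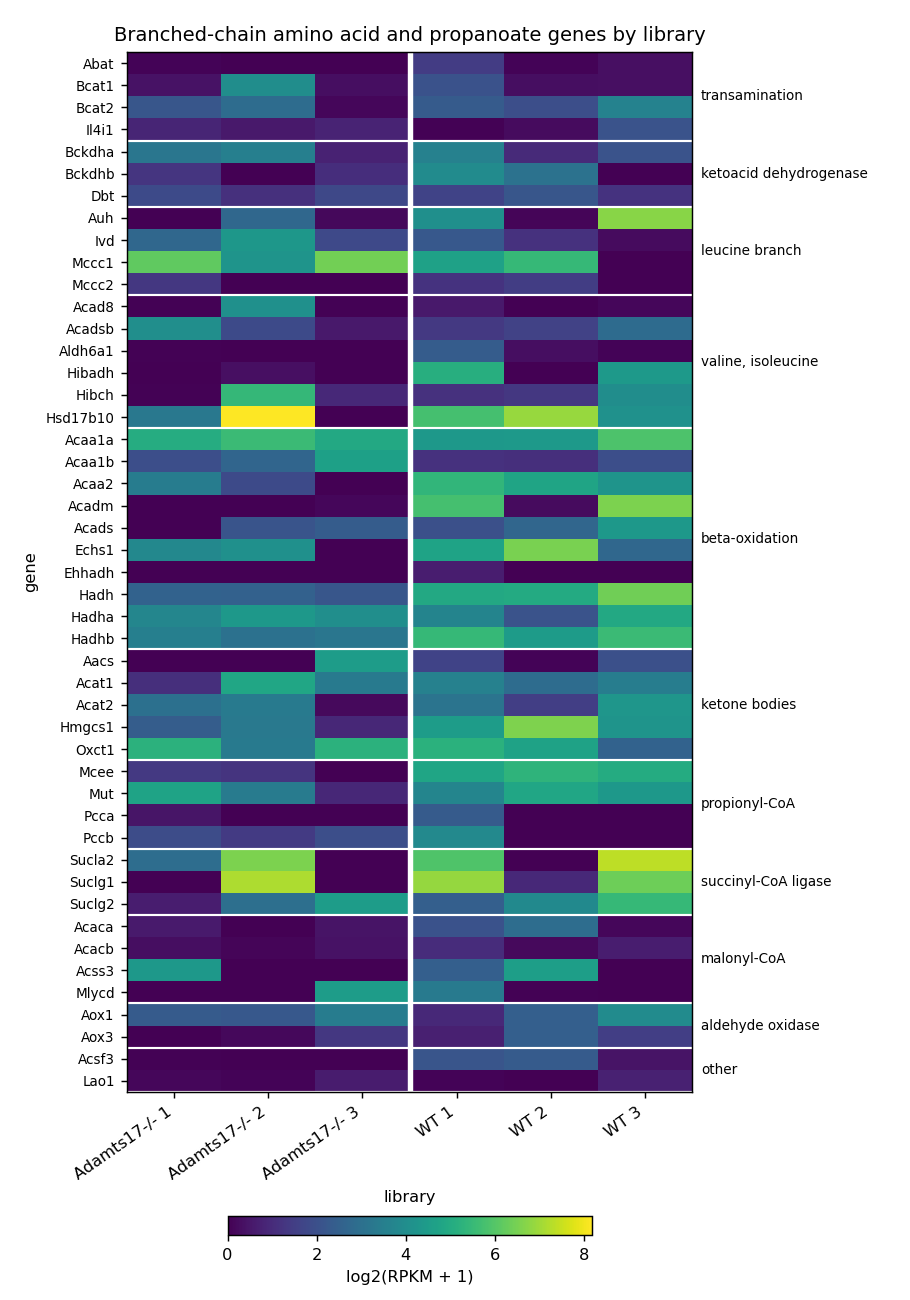
Level of 47 of the 48 members as log2(RPKM + 1), colour from 0 (dark) upward, with 1 row per gene grouped by role and 1 column per library, Adamts17-/- at left and WT at right. Rows such as Mcee, Hadh and Hadhb are darker in all 3 Adamts17-/- columns, while rows such as Suclg1 and Sucla2 alternate between bright and dark within each genotype.

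The filter passed 34 of the 48 members, and 14 reached 1 RPKM in fewer than 3 libraries. Of the 34, 12 had a log2 fold change above 0 (52.8% of all tested genes did) and 22 below 0 (64.7% of the members, against 47.2% of all tested genes). The median log2 fold change was -0.85 over these members and 0.08 over all tested genes. Over all 48 members, with no filter, 16 were above 0 and 32 below, with a median of -0.61, against -0.02 over the whole table. None of the 34 was called (smallest adjusted p = 0.999, limma with Benjamini-Hochberg adjustment over all tested genes), and 2 of them, Mcee and Hadh, had an unadjusted p under 0.05. The libraries of the 2 genotypes did not overlap for 5 tested members that were lower in Adamts17-/- (14.7%, against 3.54% of all tested genes) and for 1 that was higher (2.94%, against 3.09%). Among the 14 members that were not tested, Acadm, Aldh6a1, Acsf3 and Abat had all Adamts17-/- libraries below the WT libraries, as did 366 of all 5754 genes that did not pass the filter (6.36%). The reverse held for 0 of the 14 members and for 1.18% of the genes that did not pass. Since the pathways were picked on this contrast, nothing is read from these shares.

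**Figure D2:**
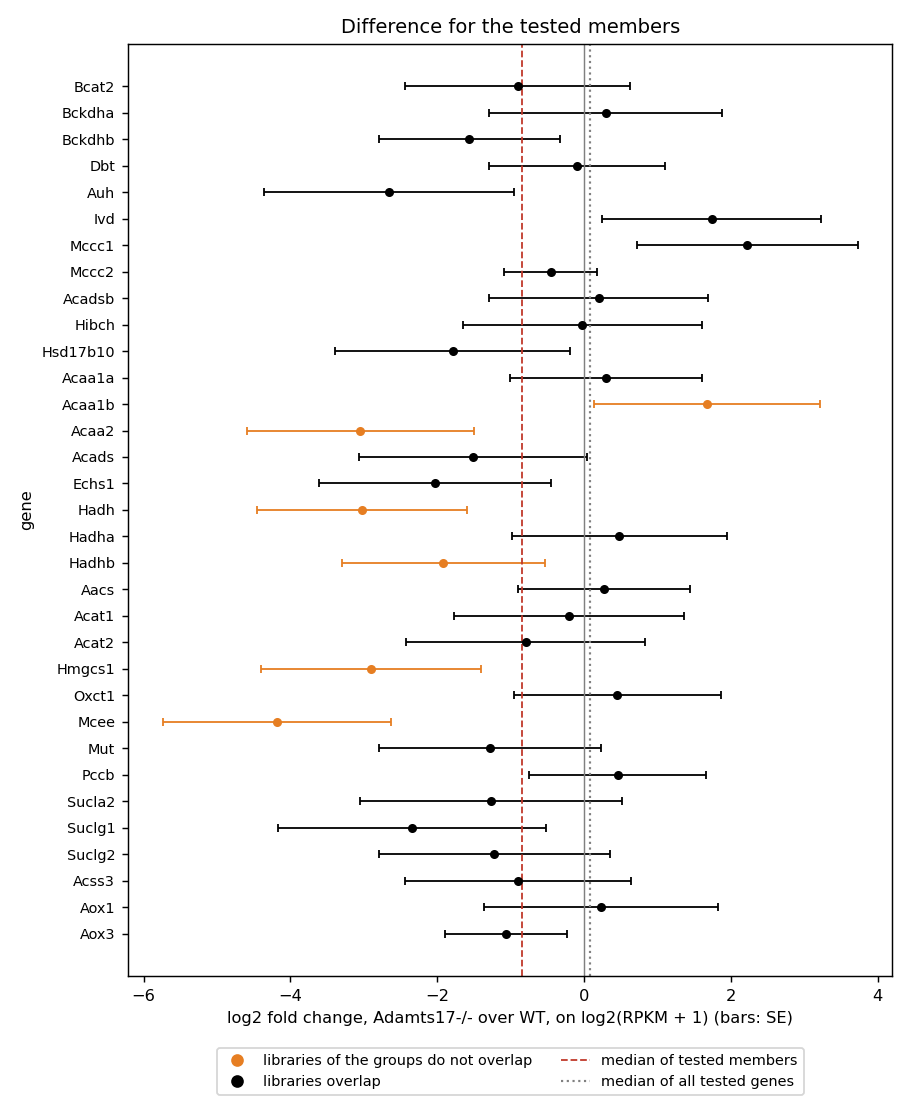
Log2 fold change of Adamts17-/- over WT on the log2(RPKM + 1) scale for 33 of the 34 tested members, ordered by role from transaminases (top) to aldehyde oxidases (bottom), with the moderated SE of the fit as bars. The 6 members whose libraries do not overlap between genotypes are orange; the dashed line is the median of all 34 tested members (-0.85) and the dotted line that of all tested genes (0.08).

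Spread between libraries of 1 genotype was large for the members, as for the other genes. Of the 34 tested members, 17 (50%) reached at least 10 RPKM in 1 library and less than 1 RPKM in another of the same genotype, against 47.8% of all tested genes. This occurred within Adamts17-/- for 12 members and within WT for 9. Only 8 of the 48 members had at least 1 RPKM in all 6 libraries, and 23 were above 0 in all 6. Standard errors of the log2 fold change had a median of 1.54 over the tested members and 1.48 over all tested genes. These errors come from a variance moderated over all tested genes, so their nearness does not measure the members' own spread.

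Of the 6 tested members without overlap, 4 were enzymes shared with fatty acid oxidation. Hadh, the mitochondrial 3-hydroxyacyl-CoA dehydrogenase for short and medium chains (chromosome 3, 131233420 to 131272101, minus strand), was at 4.90, 4.81 and 3.51 RPKM in Adamts17-/- and 29.7, 30.8 and 84.3 RPKM in WT. The 3 Adamts17-/- libraries lay close together and all were below the lowest WT library. The log2 fold change of Hadh came to -3.02 ± 1.43 (SE, 3 libraries per genotype), and it ran from -3.28 to -2.54 when 1 library at a time was left out.

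Hadhb, the thiolase subunit of the mitochondrial trifunctional protein (chromosome 5, 30155253 to 30184593, plus strand), was at 10.6, 7.35 and 8.31 RPKM in Adamts17-/- and 43.9, 21.6 and 46.8 RPKM in WT. No library of one genotype lay within the range of the other, and the log2 fold change was -1.92 ± 1.39 (SE). Hadha, its partner subunit, which is transcribed away from the same intergenic stretch (chromosome 5, 30118304 to 30154980, minus strand), is named here after its values were seen. Its level was 12.3, 19.5 and 15.6 RPKM in Adamts17-/- and 11.8, 3.24 and 29.8 RPKM in WT. Here the genotypes overlapped, with a log2 fold change of 0.48 ± 1.46 (SE). In GENCODE vM21, 61.5% of the 50-base stretches of the Hadhb transcript also occur in Gm13910, a processed pseudogene, so the Hadhb level depends on how reads with several positions were assigned.

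Acaa2, the mitochondrial thiolase of fatty acid oxidation (chromosome 18, 74779212 to 74806207, plus strand), was at 9.73, 2.54 and 0 RPKM in Adamts17-/- and 40.6, 26.3 and 17.9 RPKM in WT. Its libraries did not overlap either, with a log2 fold change of -3.05 ± 1.55 (SE). Acadm, the medium-chain acyl-CoA dehydrogenase, was listed at 0, 0 and 0.109 RPKM in Adamts17-/- and at 53.0, 0.176 and 92.9 RPKM in WT. That is 0.143 read equivalents summed over Adamts17-/- and 476 over WT, but WT replicate 2 held only 0.286 read equivalents. With 2 libraries above 1 RPKM Acadm was not fitted with the filter, and it is named after its values were seen.

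The peroxisomal thiolase pair did not share this direction. Acaa1b (chromosome 9, 119148043 to 119157093, minus strand) was at 2.92, 5.41 and 23.8 RPKM in Adamts17-/- and 1.26, 1.14 and 2.92 RPKM in WT. It was the 1 tested member whose Adamts17-/- libraries all lay above the WT libraries, although Adamts17-/- replicate 1 and WT replicate 3 were equal to 3 digits (log2 fold change 1.68 ± 1.54, SE). Acaa1a was at 32.5, 46.1 and 29.6 RPKM in Adamts17-/- and 19.4, 20.5 and 58.1 RPKM in WT, with overlap. Of the 50-base stretches of the Acaa1b transcript 35.5% also occur in Acaa1a, so the split of reads between the 2 genes is uncertain.

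Among the remaining enzymes of this group, Echs1, the short-chain enoyl-CoA hydratase, was at 13.1, 16.3 and 0 RPKM in Adamts17-/- and 25.6, 92.2 and 5.68 RPKM in WT. Acads, the short-chain acyl-CoA dehydrogenase, was at 0, 3.34 and 4.19 RPKM in Adamts17-/- and 2.99, 5.45 and 19.4 RPKM in WT. Both overlapped between genotypes, with log2 fold changes of -2.03 ± 1.58 and -1.51 ± 1.56 (SE). Ehhadh, the peroxisomal bifunctional enzyme, was at most 0.581 RPKM in any library. Of the 10 enzymes in this group 8 were tested, 3 with a log2 fold change above 0 and 5 below.

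**Figure D3:**
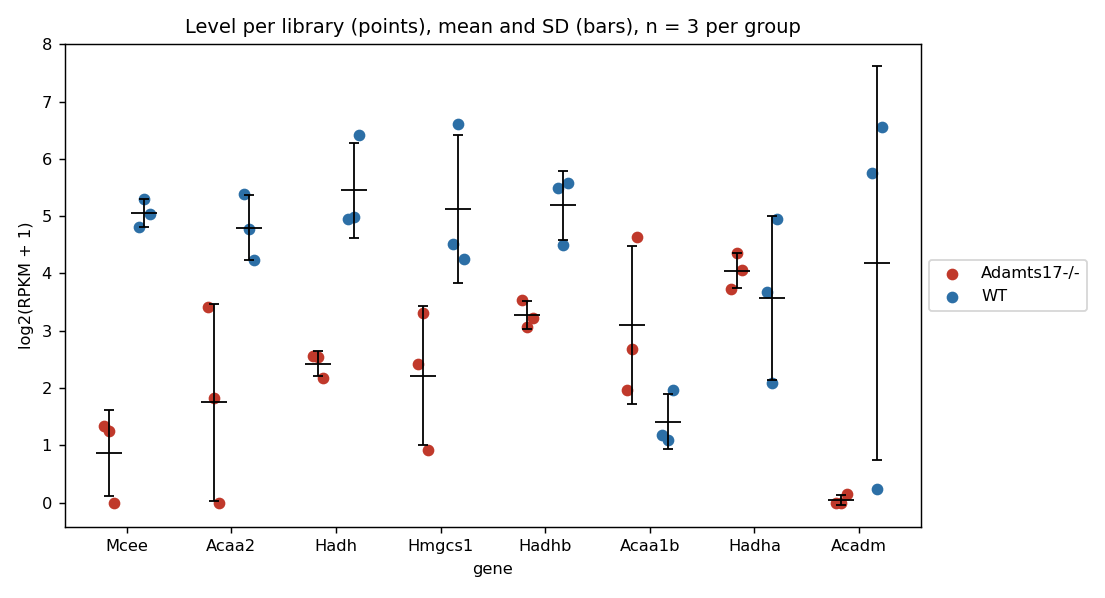
Level as log2(RPKM + 1) of the 6 tested members whose libraries do not overlap between genotypes, followed by Hadha and Acadm; points are libraries (Adamts17-/- red and left, WT blue and right), and bars the mean and SD of 3 libraries. Mcee, Acaa2, Hadh, Hmgcs1 and Hadhb have all red points below the blue ones, Acaa1b the reverse, and Hadha overlaps.

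The pathway from propionyl-CoA to succinyl-CoA held the largest difference among the tested members. Mcee, the methylmalonyl-CoA epimerase (chromosome 7, 64392771 to 64412119, plus strand), was at 1.54, 1.37 and 0 RPKM in Adamts17-/- and 27.2, 38.4 and 31.9 RPKM in WT. The WT libraries agreed closely for this gene, and all 3 Adamts17-/- libraries were far below them, at 3.10 read equivalents in sum against 94.0 in WT. The fit put Mcee at a log2 fold change of -4.19 ± 1.55 (SE, 3 libraries per genotype), and at -4.43 to -3.76 with 1 library left out.

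The other enzymes of this pathway overlapped between genotypes. Mut, the cobalamin-dependent methylmalonyl-CoA mutase, was at 25.7, 9.51 and 0.896 RPKM in Adamts17-/- and 12.0, 27.5 and 19.5 RPKM in WT (log2 fold change -1.28 ± 1.51, SE). Pccb, the beta subunit of the biotin-dependent propionyl-CoA carboxylase, was at 2.69, 1.61 and 2.89 RPKM in Adamts17-/- and 13.4, 0 and 0 RPKM in WT. Pcca, the alpha subunit of the same enzyme, was at 0.374, 0 and 0 RPKM in Adamts17-/- and 4.03, 0 and 0 RPKM in WT. In each genotype replicate 1 had the highest Pcca level, and in WT it alone held reads of either carboxylase subunit.

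Succinyl-CoA ligase, the citrate cycle enzyme that takes up the product, has a shared alpha subunit (Suclg1) and 2 alternative beta subunits (Sucla2 for ADP, Suclg2 for GDP). Suclg1 was at 0, 143 and 0 RPKM in Adamts17-/- and 118, 0.914 and 81.4 RPKM in WT. Sucla2 was at 6.56, 93.2 and 0 RPKM in Adamts17-/- and 59.4, 0 and 163 RPKM in WT. Both genes were thus high in the same 3 libraries, Adamts17-/- replicate 2 and WT replicates 1 and 3, and low in the other 3. Suclg2 followed another order, with 0.573, 7.00 and 22.0 RPKM in Adamts17-/- and 4.58, 13.7 and 43.6 RPKM in WT. The log2 fold changes were -2.34 ± 1.83, -1.27 ± 1.78 and -1.22 ± 1.58 (SE) for Suclg1, Sucla2 and Suclg2, and all 3 genes overlapped between genotypes. Of the 50-base stretches of the Suclg2 transcript 21.8% also occur in the processed pseudogene Gm15163, which makes its level uncertain.

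At the entry to the pathway levels were low. Bcat2, the mitochondrial branched-chain aminotransferase, was at 3.53, 6.49 and 0.102 RPKM in Adamts17-/- and 4.14, 2.89 and 11.3 RPKM in WT (log2 fold change -0.90 ± 1.53, SE). Bcat1, the cytosolic form, was at 0.328, 15.2 and 0.236 RPKM in Adamts17-/- and 3.13, 0.231 and 0.265 RPKM in WT, so 1 library of each genotype carried nearly all of it. Abat, the GABA transaminase, which also handles a valine catabolite, was at most 1.74 RPKM, and its 3 Adamts17-/- libraries (0.0533, 0 and 0 RPKM) lay below the WT libraries (1.74, 0.0610 and 0.252 RPKM). Il4i1, a secreted amino acid oxidase of immune cells, was at 0.808, 0.466 and 0.766 RPKM in Adamts17-/- and 0.0427, 0.178 and 3.28 RPKM in WT, and another amino acid oxidase gene, Lao1, was below 0.7 RPKM in all 6 libraries.

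Subunits of the ketoacid dehydrogenase complex did not share a direction. Dbt, the transacylase core, was low in all 6 libraries, at 2.53, 1.19 and 2.44 RPKM in Adamts17-/- and 2.12, 3.55 and 1.30 RPKM in WT (log2 fold change -0.10 ± 1.201, SE). Bckdha, the E1 alpha subunit, was at 8.23, 10.6 and 0.737 RPKM in Adamts17-/- and 11.1, 0.957 and 3.29 RPKM in WT. Bckdhb, the E1 beta subunit that pairs with it, was at 1.39, 0 and 1.12 RPKM in Adamts17-/- and 14.5, 7.44 and 0 RPKM in WT. The log2 fold changes were 0.29 ± 1.59 for Bckdha and -1.56 ± 1.24 for Bckdhb (SE), with overlap between genotypes in both.

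In the leucine branch 3 of the 5 tested genes had a log2 fold change above 0, and none was separated by genotype. Ivd, the isovaleryl-CoA dehydrogenase, was at 5.65, 18.9 and 2.53 RPKM in Adamts17-/- and 3.72, 1.23 and 0.188 RPKM in WT (1.74 ± 1.49, SE). Mccc1, the biotin-carrying subunit of methylcrotonyl-CoA carboxylase, was at 71.2, 17.9 and 85.9 RPKM in Adamts17-/- and 24.8, 44.0 and 0 RPKM in WT (2.23 ± 1.503, SE). Mccc2, the other subunit, was near the floor, at 1.505, 0.0112 and 0 RPKM in Adamts17-/- and 1.32, 1.80 and 0 RPKM in WT. Levels of the 2 carboxylase subunits therefore differed strongly within single libraries.

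Auh, the methylglutaconyl-CoA hydratase, was at 0, 5.67 and 0.130 RPKM in Adamts17-/- and 15.9, 0.0728 and 104 RPKM in WT (log2 fold change -2.66 ± 1.70, SE). WT held the highest library for Auh, while WT replicate 2 lay below the highest Adamts17-/- library.

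Of the 6 genes of the valine and isoleucine branches, 3 passed the filter. Hsd17b10, the isoleucine branch dehydrogenase (chromosome X, 152001896 to 152004442, plus strand), was at 8.60, 288 and 0 RPKM in Adamts17-/- and 53.4, 119 and 16.7 RPKM in WT (-1.79 ± 1.60, SE). It had the highest mean RPKM of its branch, and Adamts17-/- held both its highest and its lowest library. Hibadh, the 3-hydroxyisobutyrate dehydrogenase of the valine branch, was at 0, 0.275 and 0 RPKM in Adamts17-/- and 33.9, 0 and 20.2 RPKM in WT, 1 read equivalent against 198 in sum. Hibch, the hydrolase before it, was at 0.0286, 42.2 and 0.920 RPKM in Adamts17-/- and 1.23, 1.49 and 15.1 RPKM in WT. The highest library was WT replicate 1 for Hibadh and Adamts17-/- replicate 2 for Hibch, and WT replicate 3 was the next highest for both.

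Aldh6a1, the methylmalonate semialdehyde dehydrogenase at the end of the valine branch, was at 0.0291, 0 and 0 RPKM in Adamts17-/- and 4.21, 0.228 and 0.0499 RPKM in WT, below the filter. Acad8, the isobutyryl-CoA dehydrogenase, was at 0.0243, 16.1 and 0.0421 RPKM in Adamts17-/- and at most 0.489 RPKM in WT. Acadsb, the short and branched-chain acyl-CoA dehydrogenase of isoleucine, was at 15.4, 2.56 and 0.468 RPKM in Adamts17-/- and 1.57, 2.03 and 6.28 RPKM in WT (0.20 ± 1.49, SE). Only Aldh6a1 of these 3 had no overlap between genotypes, and it did so at levels of at most 0.600 read equivalents outside WT replicate 1.

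Hmgcs1, the cytosolic HMG-CoA synthase of the mevalonate pathway (chromosome 13, 119690351 to 119708260, plus strand), was the separated member among the acetoacetyl-CoA and ketone body genes. Its level was 4.37, 8.93 and 0.898 RPKM in Adamts17-/- and 21.8, 96.4 and 18.0 RPKM in WT (log2 fold change -2.90 ± 1.496, SE). All 3 Adamts17-/- libraries lay below the WT libraries, at 16.1, 67 and 2.05 read equivalents against 223, 271 and 55.0 in WT. Oxct1, the ketone body transferase, was at 36.9, 9.19 and 37.1 RPKM in Adamts17-/- and 36.0, 24.9 and 4.96 RPKM in WT, and Acat1, the mitochondrial acetoacetyl-CoA thiolase, at 1.15, 27.6 and 9.34 RPKM in Adamts17-/- and 10.9, 6.42 and 10.04 RPKM in WT. Neither was separated by genotype, with log2 fold changes of 0.45 ± 1.41 and -0.21 ± 1.56 (SE).

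Acat2, the cytosolic thiolase, was at 7.03, 9.30 and 0.151 RPKM in Adamts17-/- and 7.92, 1.84 and 18.7 RPKM in WT, and 45.9% of its 50-base stretches also occur in Acat3. Aacs, the acetoacetyl-CoA synthetase, was at 0, 0.00751 and 21.7 RPKM in Adamts17-/- and 2.10, 0.0669 and 2.96 RPKM in WT. In Adamts17-/- its level thus came from replicate 3.

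The malonyl-CoA genes were mostly below the filter. Acss3, a mitochondrial acyl-CoA synthetase for short chains, was the 1 tested member of this group, at 19.4, 0.00768 and 0 RPKM in Adamts17-/- and 4.51, 23.1 and 0 RPKM in WT (-0.90 ± 1.54, SE). Mlycd, the malonyl-CoA decarboxylase, was at 0, 0.0126 and 21.7 RPKM in Adamts17-/- and 9.36, 0.0357 and 0 RPKM in WT. Acaca, the acetyl-CoA carboxylase of fatty acid synthesis, was at 0.495, 0.0204 and 0.347 RPKM in Adamts17-/- and 3.19, 6.65 and 0.0941 RPKM in WT. Acss3 and Mlycd were each present in some libraries of either genotype and nearly absent from others, while Acaca passed 1 RPKM in WT replicates 1 and 2 alone. Its level is uncertain, since 52.6% of its 50-base stretches also occur in the processed pseudogene Gm5182. Acacb, the mitochondrial carboxylase isoform, was at most 1.07 RPKM in any library. Acsf3, a mitochondrial malonyl-CoA synthetase, was at 0.0368, 0 and 0 RPKM in Adamts17-/- and 3.49, 4.04 and 0.361 RPKM in WT, with no overlap. The aldehyde oxidase genes Aox1 and Aox3, neighbours on chromosome 1, had log2 fold changes of 0.23 ± 1.60 and -1.06 ± 0.83 (SE). Aox1 was at 4.13, 3.79 and 9.89 RPKM in Adamts17-/- and 0.920, 4.55 and 14.5 RPKM in WT, and Aox3 at 0.0172, 0.128 and 1.49 RPKM in Adamts17-/- and 0.658, 4.51 and 1.86 RPKM in WT.

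The lists of genes around the pathway did not share a direction with each other. In the group of amino acid carriers and regulators of the ketoacid dehydrogenase, 4 of 6 tested genes were above 0 and 2 below, with 0 called by limma. Bckdk, the kinase that inactivates the complex, was at 36.7, 65.3 and 12.9 RPKM in Adamts17-/- and 13.3, 40.9 and 0.762 RPKM in WT (1.68 ± 1.49, SE), and Slc43a1, a neutral amino acid carrier, had the largest difference of that group (2.60 ± 1.61). Of the cobalamin and biotin genes 4 of 7 were above 0 and 3 below. Mmaa, which guards the mutase cofactor, was at 0, 0.0577 and 8.31 RPKM in Adamts17-/- and 4.96, 0.448 and 57.2 RPKM in WT (-1.89 ± 1.59, SE). Among electron transfer flavoprotein and long-chain oxidation genes 2 of 8 were above 0 and 6 below, with a median log2 fold change of -0.81. Eci1, an enoyl-CoA isomerase, was at 0, 1.77 and 0.0718 RPKM in Adamts17-/- and 27.6, 0 and 46.0 RPKM in WT (-2.94 ± 1.55, SE). In the citrate cycle list 7 of 14 were on each side, and Sdhc, a membrane subunit of succinate dehydrogenase, had the largest difference (3.19 ± 1.44, SE).

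Set beside other energy pathways of the same table, the members' median log2 fold change of -0.85 compares with 0.43 over 97 tested genes of oxidative phosphorylation, 0.06 over 23 of the citrate cycle and -0.02 over 37 of glycolysis. Genes below 0 made up 64.7% of the tested members, 35.1% of the oxidative phosphorylation genes, 47.8% of the citrate cycle genes and 51.4% of the glycolysis genes. The electron transfer flavoprotein and long-chain oxidation list was close to the members, with a median of -0.81 over 8 tested genes and 75% below 0. A lower level was thus not particular to the members. Mean log2(RPKM + 1) of the oxidative phosphorylation genes was 5.29, 6.55 and 4.85 in Adamts17-/- and 6.15, 4.13 and 5.72 in WT. WT replicate 2 was thus the lowest library for oxidative phosphorylation. For the 48 members it was the lowest of the WT libraries as well, yet Adamts17-/- replicates 1 and 3 were lower still. These differences between lists were not tested.

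**Figure D4:**
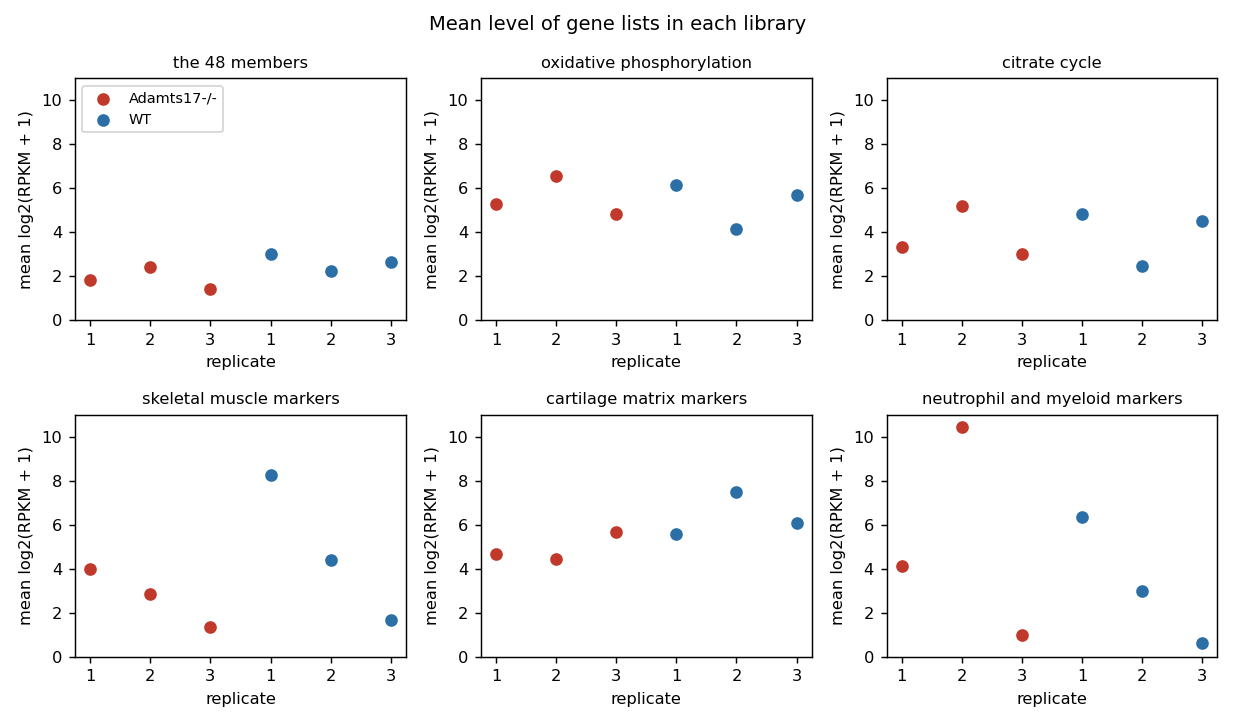
Mean log2(RPKM + 1) of 6 gene lists in each library, Adamts17-/- (red, left) and WT (blue, right), numbered by replicate. The members range from 1.43 to 3.02, while muscle markers are highest in WT replicate 1 and neutrophil and myeloid markers in Adamts17-/- replicate 2.

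Markers of other tissues varied between the same libraries. The 13 skeletal muscle markers, of which 8 were tested and all 8 were below 0, summed to 464, 561 and 362 RPKM in Adamts17-/- and 16899, 1534 and 258 RPKM in WT, and Mb (myoglobin) was listed at 0 in all 3 Adamts17-/- libraries. Markers at 0 numbered 1, 4 and 8 of 13 in Adamts17-/- and 0, 0 and 5 of 13 in WT. In WT replicate 3, where that sum was the lowest of the 6 libraries, Hadh (84.3 RPKM) and Hadhb (46.8 RPKM) had their highest levels. Acaa2, in contrast, was highest in WT replicate 1, at 40.6 RPKM, and Mcee and Hmgcs1 in WT replicate 2, at 38.4 and 96.4 RPKM, while Acaa2 and Hmgcs1 had their lowest WT level in WT replicate 3, at 17.9 and 18.0 RPKM. The part of muscle RNA in these levels was not tested. Without WT replicate 1 the log2 fold change was -3.28 for Hadh, -1.77 for Hadhb, -2.76 for Acaa2, -4.31 for Mcee and -3.21 for Hmgcs1. The libraries of these genes do not overlap between genotypes, so leaving out a library could not change the sign.

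The 10 hypertrophic chondrocyte markers were all tested, with 5 above 0, 5 below and a median log2 fold change of 0.01. Their sums were 3311, 5460 and 5824 RPKM in Adamts17-/- and 4356, 14830 and 12250 RPKM in WT. All 10 cartilage matrix markers were tested, and all 10 were below 0 in Adamts17-/-. They summed to 447, 440 and 1206 RPKM in Adamts17-/- and 749, 3353 and 1766 RPKM in WT, with Matn3 listed at 0 in Adamts17-/- replicate 3. This sum was highest in WT replicate 2, where Mcee and Hmgcs1 were also highest. Hadh, Hadhb and Acaa2 were highest in other WT libraries. The part of cartilage matrix cells in the members' levels was not tested. The 8 neutrophil and myeloid markers found in the table summed to 2133, 52502 and 85.5 RPKM in Adamts17-/- and 1841, 214 and 15.96 RPKM in WT, with Prtn3 at 0 in all 3 WT libraries. The 5 adipocyte markers found summed to 28.1, 358 and 30.2 RPKM in Adamts17-/- and 153, 72.3 and 0.215 RPKM in WT. The 8 erythroid markers found summed to 17483, 225933 and 3224 RPKM in Adamts17-/- and 2858, 60841 and 4885 RPKM in WT, and the 6 osteoblast markers to 253, 1578 and 22.1 RPKM in Adamts17-/- and 243, 60.7 and 81.9 RPKM in WT. Of the tested markers, 7 of 7 erythroid and 6 of 7 neutrophil and myeloid ones had a log2 fold change above 0. The same held for 1 of 3 adipocyte and 1 of 4 osteoblast markers. Without Adamts17-/- replicate 2, where the myeloid and adipocyte sums were highest, the log2 fold change was -3.08 for Hadh, -1.81 for Hadhb, -3.09 for Acaa2, -4.38 for Mcee and -3.45 for Hmgcs1. Here too the sign was fixed by the lack of overlap.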

How the data were processed

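Hypertrophic zone RNA from 3 Adamts17-/- and 3 WT libraries was analysed. The authors deposited RPKM values, scaled by the TMM method according to the table's name. The unit is inferred: within a library, value times transcript length falls on multiples and fractions of a single step. Since only 21.6% to 33.6% of the values in the range 1 to 20 read equivalents lay within 0.01 of a whole number, count models were not used. The aligner, the counter and the genome build were not given in the sources used here; 40 of the 48 members start within 1000 bp of the RefSeq start in GRCm38.p6, and coordinates of genes are those of the table. Groups and replicate numbers came from the titles.

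The scale was log2(RPKM + 1), restricted to genes with at least 1 RPKM in at least 3 libraries, with limma 3.58.1 in R 4.3.3 (moderated variance following mean level, two-sided tests, Benjamini-Hochberg adjustment over all 9128 tested genes, threshold 0.05). The fit was also run on simulated data with independent normal noise. That noise does not copy the values at 0 beside high levels found here, so no conclusion is drawn from that run. The added 1 shrinks differences of low genes. Tables and figures were made with Python 3.11.15, numpy 2.4.6, pandas 2.3.3 and matplotlib 3.10.9. Named genes were 15 fixed members, the most abundant and the most different tested member of each role, every tested member without overlap between groups, and the most different gene of each list outside the pathways; other members are given to account for the rest, and 1 member is counted in every total but not reported here by itself. Of 111 entries in the lists outside the members 102 matched a row. The members and lists were chosen with earlier results of these data known. Alternatives were other pseudocounts, filters and scalings, weighted libraries, the replicate number as a block, and omission of single libraries; leaving out WT replicate 1 and Adamts17-/- replicate 2 together was chosen after seeing the data.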

Additional observations from a re-analysis of the deposited data

How the results depend on the processing

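Members called stayed at 0 under all 15 alternatives (limma), and their median log2 fold change stayed below 0. That median was -0.85, -1.35 with a pseudocount of 0.1, -1.31 without WT replicate 1 and Adamts17-/- replicate 2 together (a choice made after seeing the data), and -1.01 to -0.16 with 1 library left out: -0.16 without Adamts17-/- replicate 3, -0.34 without WT replicate 3 and -0.53 without WT replicate 1. Members below and above 0 numbered 22 and 12, 14 and 6 with a minimum value of 5, 17 and 7 without both libraries, and 18 to 22 and 9 to 14 with 1 library left out. Genes called over the whole table numbered 0, but 1 (Myl1) with library weights, and 0 to 5 with 1 library left out (5 without Adamts17-/- replicate 3). Upper-quartile scaling moved the median of all genes to -0.07 and that of the members to -1.02.

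With the number in the titles as a replicate block, 0 genes and 0 members were called. Same-numbered libraries deviated from their group means with correlations of -0.01, -0.35 and -0.10, so the numbers were not taken to pair the libraries.

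Over 25 named members, 21 of 343 alternative values had the other sign, in 8 members, none of which had been called. With single libraries left out, values ran from -1.07 to 0.79 for Acat1, -0.52 to 0.98 for Aox1, -0.33 to 1.15 for Bckdha, -3.97 to 0.11 for Hsd17b10, -0.18 to 1.74 for Pccb and -3.48 to 0.31 for Sucla2. Without Adamts17-/- replicate 1 Acat1 moved to 0.79 and Bckdha to -0.053, and without replicate 2 Bckdha moved to -0.22 and Dbt to 0.13. Without Adamts17-/- replicate 3 Aox1 moved to -0.15, Hsd17b10 to 0.11 and Sucla2 to 0.31. Without WT replicate 1 Aox1 moved to -0.52, without WT replicate 2 Bckdha moved to -0.33, Dbt to 0.16 and Pccb to -0.18, and without WT replicate 3 Pccb moved to -0.18 and Sucla2 to 0.20. Without both libraries Acaa1a moved to -0.16, Aox1 to -0.31 and Dbt to 0.11. Library weights gave Bckdha -0.51, Dbt 0.022 and Pccb -1.29, quantile normalization gave Dbt 0.068, and a pseudocount of 4 gave Pccb -0.037. The cause was not tested. Mcee, Hadh, Hadhb, Acaa2, Hmgcs1 and Acaa1b kept their sign under every alternative that was run. They were named because their libraries did not overlap between genotypes. Omitted libraries, pseudocounts, filters, weights and the block therefore could not change their sign, and only the scalings could have. Members listed near 0 rest on less than 1 read equivalent in several libraries. Adamts17-/- replicate 2, with 2688295 read equivalents in all, had 7 members at 0, and WT replicate 1, with 1662637, had 0.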

Other observations

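Mccc1, the biotin-carrying methylcrotonyl-CoA carboxylase subunit, shared an order of the libraries with several genes around the pathway, an order noticed in the data. Adamts17-/- replicates 1 and 3 and WT replicate 2 were all above WT replicate 1, which was above Adamts17-/- replicate 2 and WT replicate 3. Of the 34 tested members 2 (5.88%), Mccc1 and Dbt, had this order, as did 578 of all 9128 tested genes (6.33%). Of 35 tested genes in the lists outside the members 6 had it (17.1%): Slc3a2, Ppm1k, Mmachc, Lmbrd1, Abcd4 and Ogdh. Since the order was noticed in the same data that these counts use, nothing is read from the shares. Ppm1k, the phosphatase that reactivates the ketoacid dehydrogenase, was at 261, 17.3 and 242 RPKM in Adamts17-/- and 73.2, 316 and 29.0 RPKM in WT. Slc3a2, the heavy chain of the leucine carrier, was at 729, 90.9 and 921 RPKM in Adamts17-/- and 278, 1055 and 131 RPKM in WT. Ogdh, the oxoglutarate dehydrogenase of the citrate cycle, was at 148, 17.7 and 221 RPKM in Adamts17-/- and 63.1, 201 and 27.9 RPKM in WT. In each of these 3 genes Adamts17-/- replicate 2 was the lowest of the 6 libraries.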
